A study of Mus musculus with 6 samples.

Results

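The matrix metalloproteinases (MMPs), the membrane-anchored ADAM and secreted ADAMTS proteases, and the tissue inhibitors of metalloproteinases (TIMPs) were examined in cardiac progenitor cells that arose from dedifferentiated adult mouse cardiomyocytes (CPC) and in adult cardiomyocytes (Ctl). Members were the probe sets that named 1 gene whose symbol began with Mmp, Adam, Adamts or Timp and continued with a digit. This gave 121 probe sets for 67 of the 20677 genes on the arrays, namely 19 Mmp genes, 28 Adam genes, 16 Adamts genes and 4 Timp genes. Each gene is represented by the probe set whose mean over the 6 arrays was highest. The symbols Adamdec1 and Adamtsl were left out by the same rule and are given among the related genes, and 5 probe sets that named a family gene together with another gene were not used.

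RNA was hybridised to whole-genome mouse Affymetrix arrays, 3 of CPC and 3 of Ctl. By the labels, the CPC came from prolonged culture of adult cardiomyocytes of bi-transgenic mice, had passed through dedifferentiation and division, and were compared with freshly isolated adult cardiomyocytes of bi-transgenic mice. No transgene is named for these arrays. The bi-transgenic line built in the study carries a tamoxifen-inducible Cre recombinase under the cardiomyocyte promoter of Myh6 (αMHC-MCM) with a red-to-green reporter. The authors also report earlier use of another bi-transgenic line, αMHC-MCM;Z/EG, and the labels do not tell which line was used here. The labels speak of cells captured singly and of direct cDNA amplification with a NuGEN Pico kit, without the number of cells on an array, the animal, its age or the culture. The p-values therefore cover the scatter of 6 arrays, part of which may be technical, and a change in which cells were captured and a change in RNA per cell cannot be told apart. Levels below are log2 RMA intensities, and differences are CPC minus Ctl on that scale.

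MMPs, ADAMs and ADAMTS enzymes share a zinc-dependent catalytic domain that is kept latent by a propeptide until the propeptide is removed. MMPs cleave matrix proteins, either as secreted enzymes or, for the membrane-type members, at the cell surface. ADAMs act mainly as sheddases, which release the outer parts of membrane proteins such as growth factor precursors, cytokines and Notch receptors. ADAMTS enzymes are secreted and cut proteoglycans, procollagens and other matrix proteins. TIMPs bind the active site of MMPs, and of some ADAMs and ADAMTS enzymes, and block it. In the heart these proteins are known for their part in matrix turnover after injury, and cardiac fibroblasts, endothelial cells, pericytes, leukocytes and cardiomyocytes can all make some of them.

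Upstream windows of 250 bases were available for 39 of the 67 genes, as 44 windows from RefSeq (GRCm38.p6). Both strands were searched for the AP-1 site TGANTCA, the TATA box TATAAA and the GC box GGGCGG, and no matches of different motifs overlapped. AP-1 matches stood in 10 of the 44 windows (22.7%), against 6.75% of all 32851 windows of the same length. TATA boxes stood in 22.7% of the family windows, against 12.4% of all windows, and GC boxes in 38.6%, against 32.7%. The AP-1 matches were unevenly placed: of the 9 measured genes in the run of 10 Mmp genes on chromosome 9, 8 had one in at least 1 window, against 2 of the 30 other family genes with a window (Adam19 and Adam25). Mmp8 was the measured gene of that run without a match. Windows are printed for the 3 genes past the test threshold (Timp1, Timp2 and Mmp15) and for 3 neighbours on chromosome 9 whose high values sat on 1 CPC array (Mmp3, Mmp10 and Mmp12). They run 5′ to 3′ on the gene's strand up to the base before the annotated start, and capitals mark motif matches.
Timp1 (chrX:20869916-20870165, plus strand): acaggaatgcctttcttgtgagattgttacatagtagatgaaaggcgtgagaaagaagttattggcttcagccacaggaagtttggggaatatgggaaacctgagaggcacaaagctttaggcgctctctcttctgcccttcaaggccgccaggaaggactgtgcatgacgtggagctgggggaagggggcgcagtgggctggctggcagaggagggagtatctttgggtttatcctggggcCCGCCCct
Timp2 (chr11:118355412-118355661, minus strand): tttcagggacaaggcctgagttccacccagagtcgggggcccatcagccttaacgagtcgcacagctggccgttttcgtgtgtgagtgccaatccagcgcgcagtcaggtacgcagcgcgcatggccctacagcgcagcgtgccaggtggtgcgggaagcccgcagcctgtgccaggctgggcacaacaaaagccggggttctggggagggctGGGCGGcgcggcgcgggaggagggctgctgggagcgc
Mmp15 (chr8:95352046-95352295, plus strand): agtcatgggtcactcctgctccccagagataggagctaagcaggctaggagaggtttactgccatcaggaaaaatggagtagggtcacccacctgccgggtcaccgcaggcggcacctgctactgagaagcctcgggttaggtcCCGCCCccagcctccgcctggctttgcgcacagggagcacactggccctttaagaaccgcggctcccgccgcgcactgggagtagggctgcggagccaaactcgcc
Mmp3 (chr9:7445572-7445821, plus strand): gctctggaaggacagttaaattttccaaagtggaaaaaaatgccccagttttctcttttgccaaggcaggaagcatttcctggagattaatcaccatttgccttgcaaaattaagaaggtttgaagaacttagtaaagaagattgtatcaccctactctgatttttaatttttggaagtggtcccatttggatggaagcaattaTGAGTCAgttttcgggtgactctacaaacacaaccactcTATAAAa
Mmp10 (chr9:7502092-7502341, plus strand): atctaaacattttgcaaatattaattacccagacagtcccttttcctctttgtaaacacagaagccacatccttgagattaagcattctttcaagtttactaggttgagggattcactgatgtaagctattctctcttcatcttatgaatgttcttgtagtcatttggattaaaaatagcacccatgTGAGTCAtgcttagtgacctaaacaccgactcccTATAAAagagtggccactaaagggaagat
Mmp12 (chr9:7347124-7347373, plus strand): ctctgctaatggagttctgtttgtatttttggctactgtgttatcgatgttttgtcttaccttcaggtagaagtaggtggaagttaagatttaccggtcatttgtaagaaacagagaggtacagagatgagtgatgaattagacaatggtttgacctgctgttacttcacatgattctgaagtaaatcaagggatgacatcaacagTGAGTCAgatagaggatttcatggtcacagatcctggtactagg
The first 3 windows each held a GC box, which began 8, 37 and 106 bases before the start of Timp1, Timp2 and Mmp15 in that order. The same 7 letters, TGAGTCA, stood in the printed Mmp3, Mmp10 and Mmp12 windows, beginning 46, 63 and 44 bases before the start. Mmp12 has a second window, at the annotated start of the gene (chr9:7344147-7344396), which held none of the 3 motifs, and the printed window lies within the gene and was chosen for its match. Mmp3 and Mmp10 also had a TATA box. A match describes letters only and was not tied to any measurement here.

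Array medians lay between 7.32 and 7.47, and the highest lower quartile of an array, 6.55, was taken as background because no detection calls were given. The CPC arrays differed more among themselves (r from 0.792 to 0.857 over all probe sets) than the Ctl arrays did (r from 0.933 to 0.971). CPC 3 had a narrower spread of values than the other 5 arrays. Of 10 cardiomyocyte markers, 10 were lower in CPC, and their summed level was 10.7 to 11.12 in CPC and 16.89 to 16.95 in Ctl. The 10 fibroblast markers summed to 13.23 to 13.43 in CPC and 11.05 to 12.37 in Ctl. Col1a1, Col1a2 and Thy1 rose, 3 of the 10 (limma), and unadjusted p was under 0.05 for 5 that were higher. Tcf21 (2.09), Ddr2 (1.15), Dcn (1.12), Col3a1 (0.45), Pdgfra (-0.05), Postn (-0.14) and Lum (-0.38) did not pass. The 8 macrophage markers summed to 10.84 to 11.01 in CPC and 10.62 to 10.75 in Ctl, and none passed (limma, adjusted p under 0.05), while unadjusted p was under 0.05 for 1 that was higher.

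Few of the 67 genes passed the test, and the ones that did were inhibitors on the higher side and a membrane-type MMP on the lower side. Timp1 and Timp2 rose in CPC, 2 of 67 genes (2.99%), where 1.15% of all genes rose. Mmp15 fell, 1 of 67 (1.49%), where 4.47% of all genes fell. After scaling the arrays to a common median, 1 gene rose (Timp2) and 1 fell (Mmp15). With unadjusted p under 0.05, 10 family genes were higher and 4 lower, beside 11.0% and 10.2% of all genes. Every CPC array lay above every Ctl array for 17 genes and below for 3, beside 21.9% and 11.0% of all genes. The family median difference was 0.19, equal to the median of all genes, and 53 of the 67 differences lay within 1 log2 unit of 0. Differences were positive for 17 of 19 Mmp genes (median 0.39), 19 of 28 Adam genes (median 0.16), 10 of 16 Adamts genes (median 0.16) and 2 of 4 Timp genes, which is 71.6% of the family genes, beside 68.1% of all genes. For 11 genes no array was above background, and for 22 no array was above its own median, so a difference in these genes may be hidden. Above the upper quartile of an array's probe sets lay 18, 20 and 21 of the family genes on the CPC arrays and 13, 13 and 15 on the Ctl arrays. The same count was not made for all genes, so these counts cannot be read as a trait of the family.

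**Figure D1:**
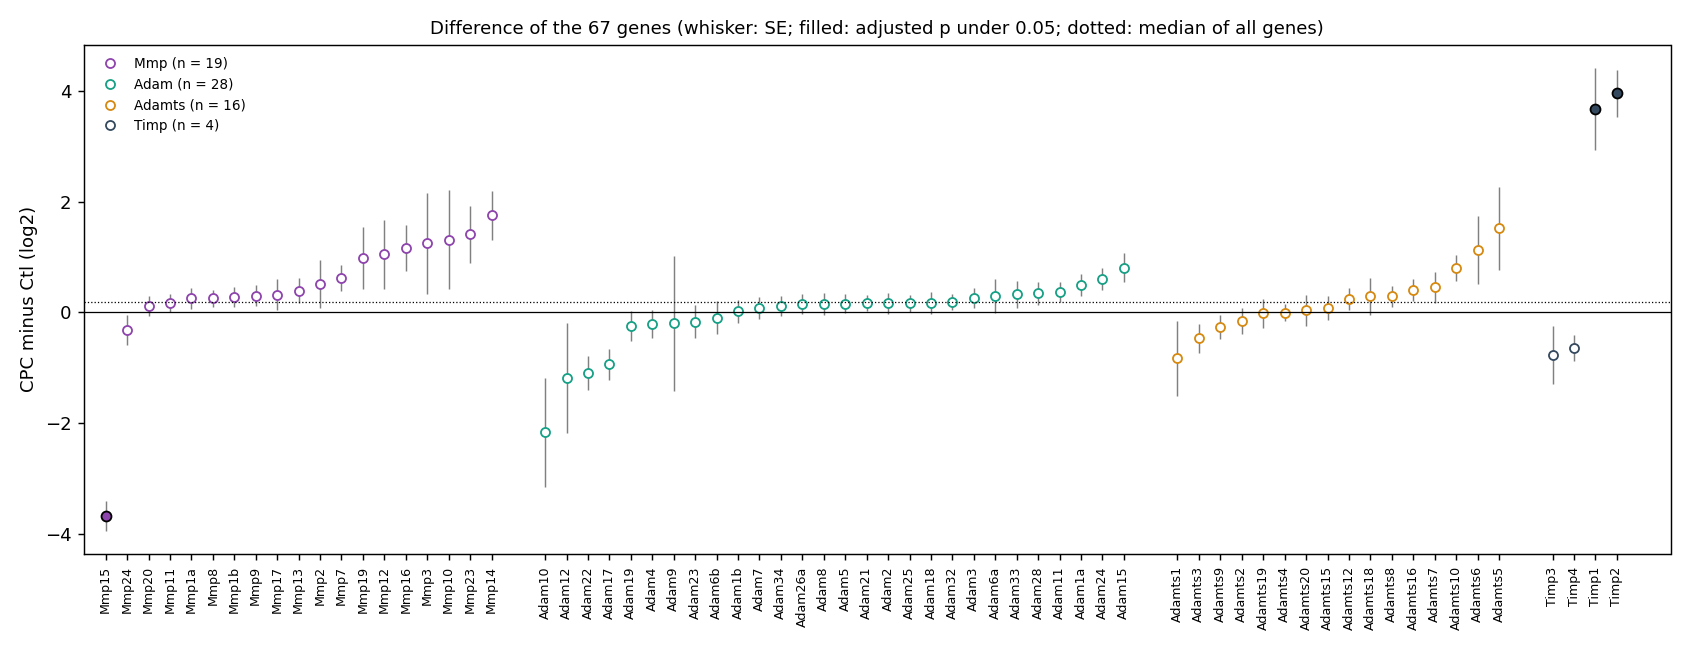
Difference of each of the 67 genes, CPC minus Ctl on the log2 scale, with its standard error from limma as whisker, grouped by gene family and ordered by size within it. Filled points mark adjusted p under 0.05 (Timp1 at 3.67, Timp2 at 3.96 and Mmp15 at -3.68), and the dotted line marks the median of all genes, 0.19.

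Of the 4 TIMPs, Timp1 and Timp2 rose in CPC, and Timp3 and Timp4 did not pass. Timp2 encodes the inhibitor that also bridges pro-MMP2 to MMP14 at the cell surface, a step in MMP2 activation. On its brightest probe set (1460287_at) it was at 12.50, 11.82 and 12.58 in CPC, against 7.72, 9.19 and 8.11 in Ctl. The groups were far apart, with the lowest CPC array 2.62 above the highest Ctl array. Timp2 was 15.5-fold higher in CPC (3.96, SE 0.43, adjusted p = 0.00488), with means of 12.30 ± 0.42 in CPC and 8.34 ± 0.76 in Ctl (SD, n = 3 each). The call was kept when any 1 array was left out (adjusted p from 0.0044 to 0.0315). All 6 Timp2 probe sets were higher in CPC, by 1.66 to 3.96, and every CPC array exceeded every Ctl array on each of them. The gap was not wide on all of them. On 1450040_at CPC 3 was at 8.10, close to Ctl 3 at 8.01, though CPC 1 and CPC 2 were at 12.38 and 11.73. On 1437081_at CPC 2 was the lowest CPC array (8.08, against 10.46 and 10.89 on CPC 1 and CPC 3). Averaged over its probe sets, Timp2 was 2.64 (adjusted p = 0.00519). A second one, 1433662_s_at, passed the test at 1.96 (adjusted p = 0.0275), though not when any 1 array other than CPC 3 was left out (adjusted p from 0.0506 to 0.12).

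Timp1, a soluble inhibitor with growth factor-like activity that is induced in many wounded tissues, has 1 probe set here (1460227_at). It was at 12.22, 11.71 and 9.31 in CPC, against 7.47, 7.14 and 7.60 in Ctl. All CPC arrays were above all Ctl arrays, but CPC 3 lay 2.40 below the next CPC array. Timp1 was 12.8-fold higher (3.67, SE 0.75, adjusted p = 0.0466), with means of 11.08 ± 1.56 in CPC and 7.40 ± 0.24 in Ctl. Its call was near the threshold. It was lost once CPC 1, CPC 2, Ctl 1, Ctl 2 or Ctl 3 was left out, with differences of 3.10 to 3.77 and adjusted p from 0.0785 to 0.153. Without CPC 3 it was 4.56 (adjusted p = 0.00205).

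Timp3, which stays bound to matrix and is the TIMP known to inhibit ADAM17 and the aggrecan-cleaving ADAMTS enzymes, gave different answers on its 4 probe sets. On the brightest (1449334_at) it was at 10.27, 9.66 and 8.68 in CPC, against 10.31, 9.56 and 11.06 in Ctl (-0.77, SE 0.53, adjusted p = 0.422). The groups overlapped there. On 1419089_at it was at 10.58, 10.05 and 11.70 in CPC, against 7.37, 7.83 and 9.54 in Ctl (2.53, adjusted p = 0.105), and on 1419088_at the difference was 2.49 (adjusted p = 0.181). Every CPC array exceeded every Ctl array on both of these, and neither passed. The fourth, 1449335_at, differed by 0.31. Signal near the 3′ end minus signal near the 5′ end was 0, 0.05 and 0.37 in CPC and -0.85, -0.41 and -0.54 in Ctl on the Actb control probe sets. On the Gapdh control probe sets it was 2.09, 2.55 and 3.53 in CPC and 2.12, 1.77 and 2.21 in Ctl. The groups were apart for Actb and overlapped for Gapdh, and CPC 3, the lowest CPC array for Timp1, was highest on both controls. The part of this in the disagreement of probe sets and in the low values of CPC 3 was not tested.

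Timp4, the TIMP known for its high level in heart muscle, was at 7.39, 7.44 and 8.03 in CPC, against 8.38, 8.0 and 8.42 in Ctl. The highest CPC array just overlapped the lowest Ctl array. The difference of -0.64 (SE 0.24, adjusted p = 0.207) did not pass, nor did that of its second probe set (-0.16, adjusted p = 0.628).

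**Figure D2:**
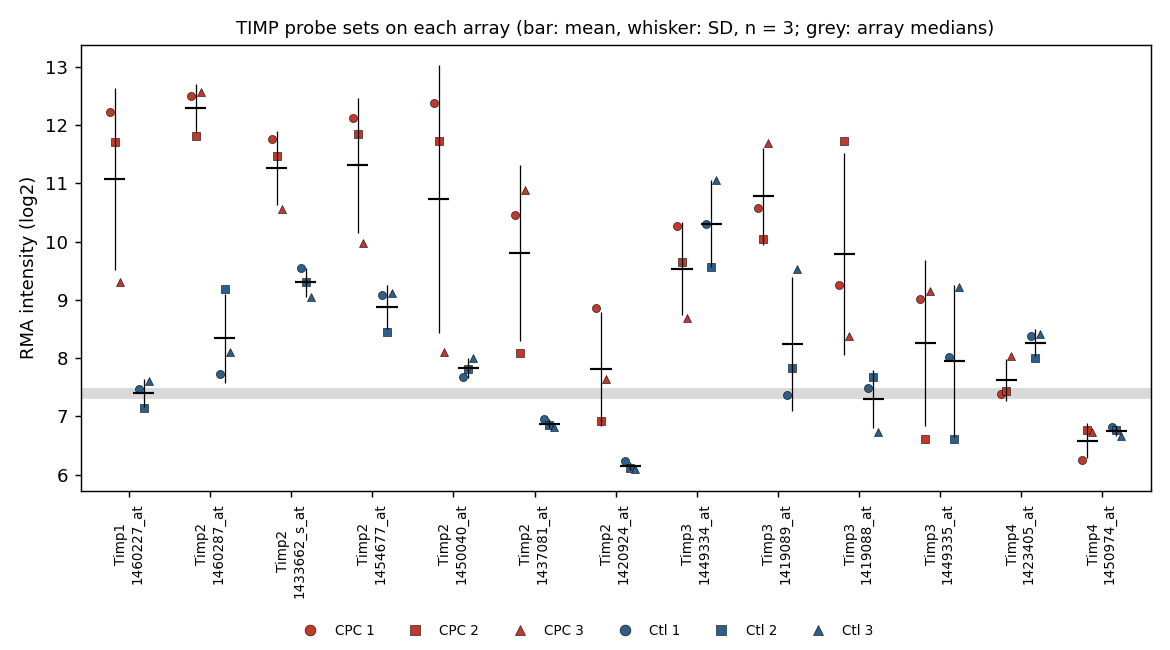
Log2 RMA intensity of all 13 TIMP probe sets on each array, CPC in red and Ctl in blue, with the mean as bar and the SD as whisker (n = 3 each) and the range of array medians in grey. The 6 Timp2 probe sets and Timp1 show all CPC arrays above all Ctl arrays, whereas the 4 Timp3 probe sets give differences from -0.77 to 2.53.

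Among the membrane-type MMPs, Mmp15 fell, and Mmp14 had a difference of the opposite sign that did not pass. Mmp15 encodes MT2-MMP, a transmembrane protease that can activate pro-MMP2. On 1437462_x_at it was at 7.87, 8.11 and 8.74 in CPC, against 11.84, 12.16 and 11.77 in Ctl, so that the groups were 3.03 log2 units apart. It was 12.8-fold lower in CPC (-3.68, SE 0.27, adjusted p = 0.00105), with means of 8.24 ± 0.45 in CPC and 11.92 ± 0.21 in Ctl (SD, n = 3 each). Leaving out any 1 array kept the call (adjusted p from 0.00184 to 0.00993). The suffix of that probe set marks probes that can match more than 1 transcript. The other Mmp15 probe set, 1422597_at, was at 6.86, 7.25 and 7.35 in CPC, against 6.77, 8.41 and 7.02 in Ctl (-0.24, adjusted p = 0.753). Its groups overlapped, with Ctl 2 the highest of the 6 arrays. The fall of Mmp15 therefore rests on 1 of its 2 probe sets, and their average gave -1.96 (adjusted p = 0.012).

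Mmp14 encodes MT1-MMP, a cell-surface collagenase and the main activator of pro-MMP2. It was at 9.26, 10.19 and 8.38 in CPC, against 7.54, 7.67 and 7.37 in Ctl, without overlap. The difference of 1.75 (SE 0.45) gave an adjusted p of 0.0944, so it did not pass, and without CPC 3 it was 2.20 (adjusted p = 0.0237). Its 3 probe sets gave similar differences, 1.63 to 1.75, and none of them overlapped between groups. Mmp2, the gelatinase that Mmp14 and Timp2 help to activate, was at 9.02, 7.77 and 8.10 in CPC, against 7.12, 8.25 and 7.99 in Ctl (0.51, adjusted p = 0.501), and its groups overlapped.

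The other membrane-anchored members did not pass with all arrays. Mmp24 (MT5-MMP) was at 9.39, 9.14 and 8.50 in CPC, against 9.22, 9.59 and 9.18 in Ctl (-0.32, adjusted p = 0.499). Mmp17 (MT4-MMP, held by a lipid anchor) was at 8.26, 8.49 and 9.24 in CPC, against 8.25, 8.36 and 8.43 in Ctl (0.32, adjusted p = 0.512). The groups overlapped for both genes. Mmp16 (MT3-MMP) was at 6.32, 7.95 and 7.12 in CPC, against 5.96, 6.15 and 5.81 in Ctl, where all 3 arrays were under background (1.16, adjusted p = 0.192). Mmp16 had no overlap on that probe set and passed without CPC 1 (1.57, adjusted p = 0.0467), but its other 3 probe sets differed by only -0.03 to 0.25. The CPC mean of Mmp16 was 1.49-fold above background on that probe set, with CPC 1 itself under background. Mmp23, a type II membrane protease without the usual hemopexin domain, was at 10.01, 8.06 and 8.32 in CPC, against 7.21, 7.37 and 7.58 in Ctl (1.41, adjusted p = 0.206), and passed only when its probe sets were averaged (0.96, adjusted p = 0.0395).

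Several secreted MMPs were high on 1 CPC array only. Mmp3 and Mmp10 encode stromelysins, which degrade proteoglycans, fibronectin and laminin and can activate other pro-MMPs. Mmp3 was at 10.85, 7.39 and 7.59 in CPC, against 7.24, 7.40 and 7.46 in Ctl (1.24, adjusted p = 0.449). Mmp10 was at 7.43, 10.84 and 7.71 in CPC, against 7.40, 7.37 and 7.27 in Ctl (1.31, adjusted p = 0.421). The high array was CPC 1 for Mmp3 and CPC 2 for Mmp10, where each stood 9.6-fold and 8.8-fold over the next CPC array, and the remaining CPC arrays lay near the Ctl level. Mmp12, a macrophage elastase, was at 5.43, 7.96 and 6.10 in CPC, against 5.45, 5.38 and 5.52 in Ctl (1.05, adjusted p = 0.374). Mmp10 and Mmp12 were thus both highest on CPC 2, and for Mmp12 the remaining arrays were under background. These 3 genes are near neighbours on chromosome 9 and have an AP-1 match in a window. So do Mmp1a, Mmp1b and Mmp13, which were under background on all 6 arrays, Mmp20, which was under the array medians, and Mmp7, which was above them on all 6 arrays.

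Mmp19, a secreted protease of basement membrane proteins, was at 10.24, 8.16 and 8.25 in CPC, against 7.80, 7.98 and 7.93 in Ctl (0.98, adjusted p = 0.360). Each CPC array lay above each Ctl array, with CPC 1 far above the others, as for Mmp23. On the second probe set of each gene CPC 1 was instead the lowest CPC array. Mmp23 was at 7.71, 8.34 and 8.40 in CPC there (1417282_at). Mmp19 was at 6.09, 6.38 and 6.15 in CPC (1421977_at), with all 6 arrays under background. Mmp7 (matrilysin) was at 8.16, 8.40 and 8.92 in CPC, against 7.88, 8.02 and 7.73 in Ctl (0.61, adjusted p = 0.219), also without overlap. Mmp9, the gelatinase of neutrophils and macrophages, was at 6.68, 6.77 and 7.18 in CPC, against 6.46, 6.61 and 6.65 in Ctl (0.30, adjusted p = 0.386), below the median of every array. Mmp9 was thus dim in both groups. The neutrophil markers matched here summed to 9.36 to 9.95 in CPC and 9.32 to 9.40 in Ctl. Mmp8, Mmp11 and Mmp20 also stayed under the array medians, with differences of 0.25, 0.17 and 0.12. The CPC arrays ranged more widely than the Ctl arrays for 18 of the 19 Mmp genes (94.7%, beside 74.7% of all genes), with a median range of 0.88 in CPC and 0.22 in Ctl.

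**Figure D3:**
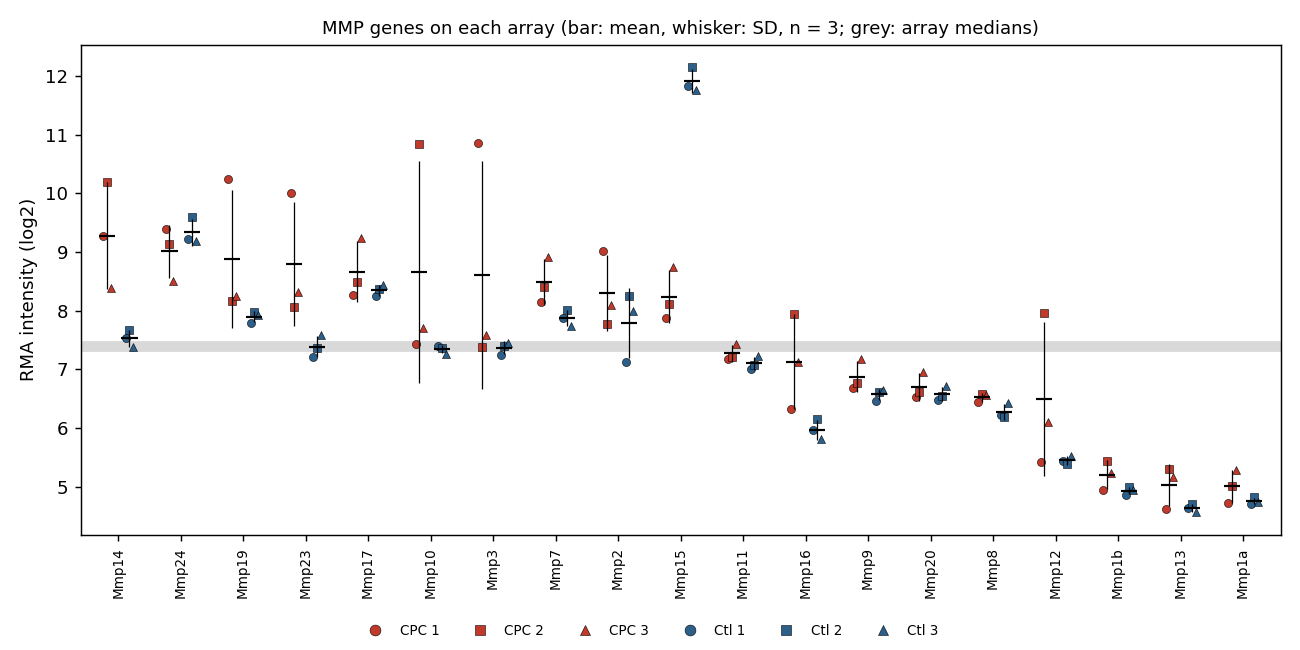
Log2 RMA intensity of the 19 Mmp genes on each array, CPC in red and Ctl in blue, with the mean as bar and the SD as whisker (n = 3 each) and the range of array medians in grey. Mmp15 is the gene with all Ctl arrays far above all CPC arrays, Mmp14 has the reverse order with a smaller gap, and Mmp3, Mmp10 and Mmp12 each have 1 high CPC array.

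No Adam gene passed on its brightest probe set (limma), while unadjusted p was under 0.05 for 3 that were higher and 2 that were lower. Adam10, which sheds Notch, cadherins and the amyloid precursor protein, was at 10.97, 7.62 and 7.29 in CPC, against 10.80, 10.34 and 11.27 in Ctl. On that probe set (1428103_at) CPC 1 was thus at the Ctl level and the other CPC arrays more than 2 log2 units below every Ctl array. The difference of -2.17 (SE 0.98, adjusted p = 0.275) did not pass, while without CPC 1 it was -3.34 (adjusted p = 0.00666). All 4 Adam10 probe sets were negative, from -2.17 to -0.34. On 1450105_at CPC 1 (8.59) lay below every Ctl array (9.36, 9.17 and 10.27). The groups did not overlap there, and the difference of -1.75 (adjusted p = 0.0979) did not pass.

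Adam17 encodes TACE, which sheds TNF and several epidermal growth factor receptor ligands. It was at 8.34, 8.39 and 8.81 in CPC, against 9.63, 8.93 and 9.79 in Ctl, without overlap (-0.94, SE 0.28, adjusted p = 0.138). A dimmer probe set, 1421859_at, was at 7.43, 7.72 and 7.70 in CPC, against 9.25, 8.63 and 9.18 in Ctl, and passed at -1.40 (adjusted p = 0.0188). That call was lost without Ctl 1 (-1.29, adjusted p = 0.087) or without Ctl 3 (-1.32, adjusted p = 0.0918). The third probe set differed by -0.34.

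Adam9 and Adam12 were split by single CPC arrays. Adam9, a broadly made sheddase, was at 11.52, 10.83 and 6.76 in CPC, against 9.55, 9.84 and 10.30 in Ctl (-0.20, SE 1.22, adjusted p = 0.930). It lay above all Ctl arrays on CPC 1 and CPC 2 and 4.07 below the next CPC array on CPC 3, and without CPC 3 the difference was 1.27 (adjusted p = 0.112). Adam12, known from muscle and mesenchymal cells, was at 10.01, 6.08 and 7.31 in CPC, against 8.58, 8.64 and 9.76 in Ctl (-1.19, adjusted p = 0.496). Its other probe set, 1421172_at, was at 9.06, 6.91 and 7.15 in CPC, against 6.32, 6.54 and 6.39 in Ctl, all under background (1.29, adjusted p = 0.267). CPC 1 was the highest CPC array on both Adam12 probe sets, which gave opposite signs.

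Adam15, a protease with an integrin-binding motif, was at 8.71, 9.53 and 9.39 in CPC, against 8.16, 8.45 and 8.60 in Ctl, without overlap (0.81, adjusted p = 0.171). It passed without CPC 1 (1.06, adjusted p = 0.0452). That probe set, 1438760_x_at, has the same suffix as the brightest Mmp15 probe set. The other Adam15 probe sets differed by 0.01 to 0.47, and none of them passed. Adam28, known from lymphocytes, was at 8.77, 9.01 and 9.43 in CPC, against 8.74, 8.67 and 8.78 in Ctl (0.34, adjusted p = 0.376). The Adam28 groups met at their edges. Adam22, an ADAM without protease activity that binds LGI proteins in the nervous system, was at 7.30, 7.27 and 7.93 in CPC, against 9.13, 8.25 and 8.42 in Ctl, without overlap (-1.10, adjusted p = 0.121). On 1451812_at, the other Adam22 probe set, the groups overlapped (-0.16, adjusted p = 0.721). In the remaining 21 Adam genes, several of them known mainly from testis, differences ranged from -0.25 to 0.61 and none passed.

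The Adamts genes gave no calls (limma, adjusted p under 0.05), while unadjusted p was under 0.05 for 1 of them, Adamts10. Adamts5, an aggrecanase that also cleaves versican, was at 10.42, 10.91 and 8.74 in CPC, against 8.28, 7.54 and 9.70 in Ctl (1.52, SE 0.75, adjusted p = 0.306). The groups overlapped, since Ctl 3 exceeded CPC 3. Its 4 probe sets were all positive, from 0.15 to 1.93. Adamts1, which cleaves versican and aggrecan, was at 9.58, 9.75 and 7.99 in CPC, against 10.08, 8.84 and 10.91 in Ctl (-0.84, SE 0.68, adjusted p = 0.485), again with overlap.

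On their brightest probe sets Adamts1, Adamts5 and Timp3 alike ranked the Ctl arrays in the order Ctl 3, Ctl 1, Ctl 2. These were 3 of the 7 family genes with a Ctl range of 1 or more. Timp3 had other orders on 1419089_at (7.37, 7.83 and 9.54 in Ctl) and 1419088_at (7.48, 7.67 and 6.74 in Ctl). The order Ctl 3, Ctl 1, Ctl 2 was shared by 32.6% of the 2189 genes with a Ctl range of 1 or more. The summed markers of endothelial cells (11.37, 10.13 and 11.65 in Ctl), fibroblasts (11.75, 11.05 and 12.37 in Ctl) and smooth muscle and pericytes (12.60, 11.54 and 13.24 in Ctl) had it too. Gene by gene, 4 of 7 endothelial, 4 of 10 fibroblast and 4 of 7 smooth muscle and pericyte markers had that order. So did 1 of 10 cardiomyocyte, 1 of 8 macrophage, 0 of 4 neutrophil and 0 of 5 epicardial markers. These marker counts set no limit on the Ctl range, so they cannot be compared with the 32.6%. In the smooth muscle and pericyte list Rgs5 fell in CPC (-3.59, adjusted p = 0.0311), whereas Acta2 (2.11), Tagln (2.46) and Pdgfrb (0.83) had positive differences that did not pass. The part of other cell types' RNA in the Ctl values of Adamts1, Adamts5 and Timp3 was not tested.

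Adamts10, which acts on microfibrils, was at 8.57, 9.15 and 8.77 in CPC, against 8.25, 8.14 and 7.69 in Ctl, without overlap (0.80, adjusted p = 0.135). The second Adamts10 probe set, 1427139_at, was under background on all 6 arrays (0.09, adjusted p = 0.765). Adamts7, which cleaves cartilage oligomeric matrix protein, was at 8.15, 8.70 and 9.03 in CPC, against 8.41, 8.20 and 7.91 in Ctl (0.45, adjusted p = 0.379). The Adamts7 groups overlapped. Adamts6 was at 6.53, 9.06 and 7.40 in CPC, against 6.59, 6.57 and 6.45 in Ctl (1.12, adjusted p = 0.340), high on CPC 2 as Mmp10 and Mmp12 were. The second Adamts6 probe set, 1457548_at, was under background on all 6 arrays (0.06, adjusted p = 0.824). Adamts4, the other main aggrecanase, was at 7.94, 7.80 and 8.06 in CPC, against 7.88, 8.09 and 7.83 in Ctl (-0.01, adjusted p = 0.986). Its groups covered the same range. The remaining 10 Adamts genes differed by -0.47 to 0.41.

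**Figure D4:**
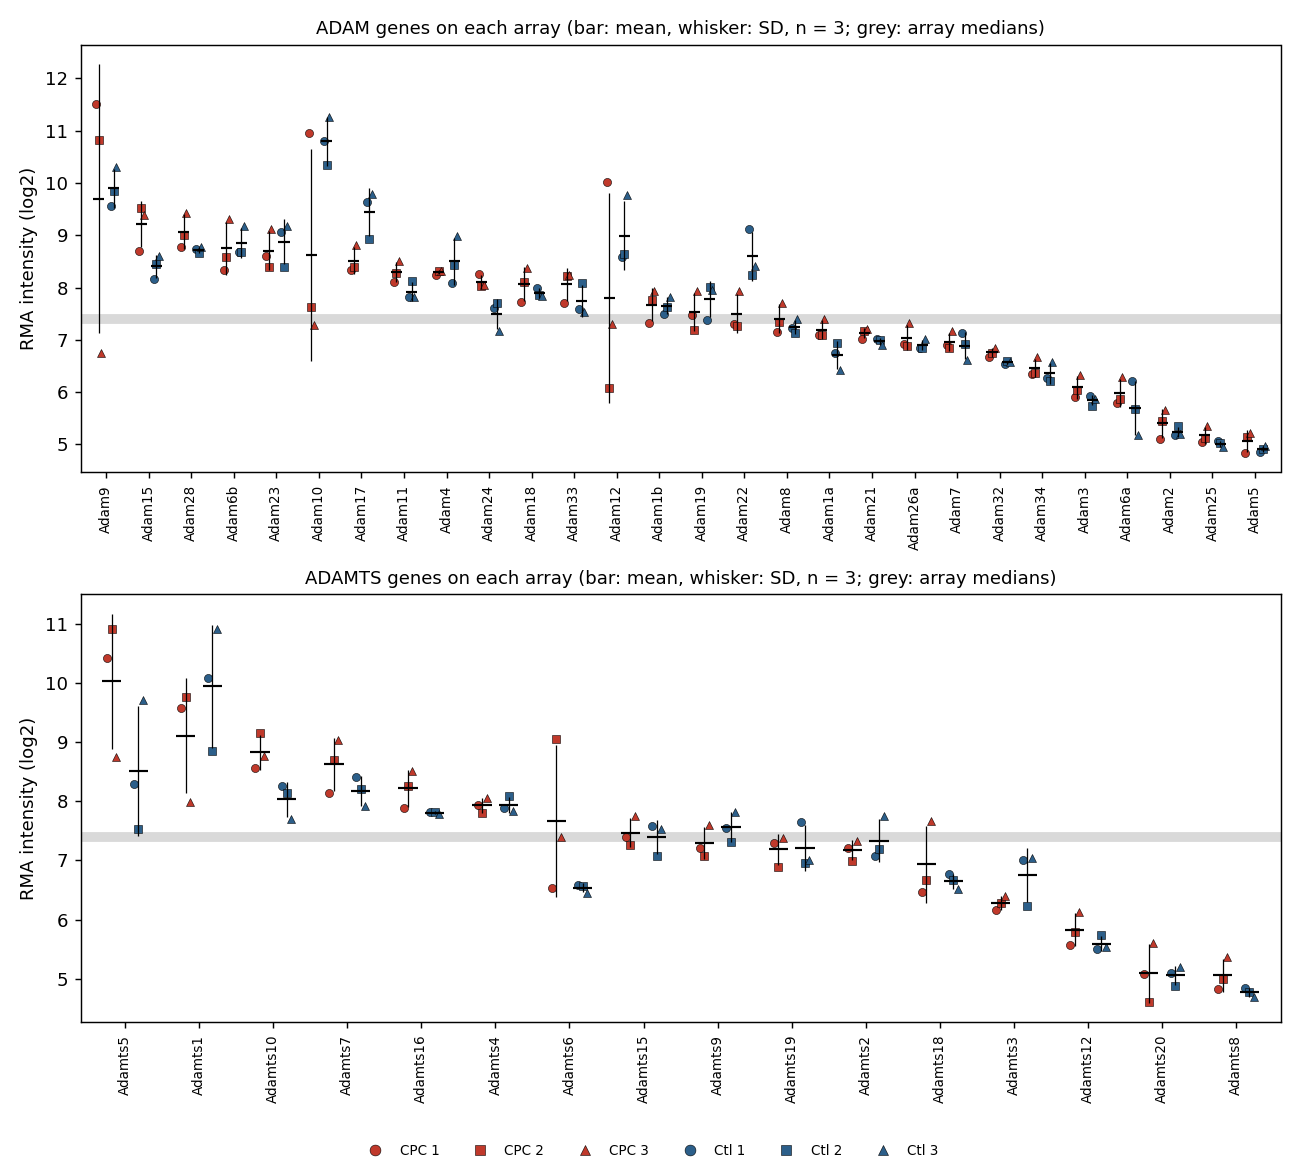
Log2 RMA intensity of the 28 Adam genes (upper panel) and 16 Adamts genes (lower panel) on each array, CPC in red and Ctl in blue, with the mean as bar and the SD as whisker (n = 3 each) and the range of array medians in grey. On the probe sets shown, Adam9 is low on CPC 3, Adam10 and Adam12 are high on CPC 1, and most of the other genes have overlapping groups near the array medians.

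The CPC arrays differed among themselves in these families about as often as in all genes. In 50 of the 67 genes (74.6%) the CPC arrays ranged more widely than the Ctl arrays, beside 74.7% of all genes. A single CPC array stood at least 2 log2 units above both others for Adam10, Adam12, Mmp3 and Mmp10 (5.97%, beside 4.03% of all genes), and at least 2 below both others for Adam9 and Timp1 (2.99%, beside 3.55%). No family gene had such a Ctl array, beside 0.305% of all genes. Of the 17 family genes with a CPC range of 1 or more, CPC 1 was highest in 9, CPC 2 in 7 and CPC 3 in 1, against 49.3%, 31.5% and 19.2% of the 5413 genes of all kinds with such a range. The part of single-cell amplification in this spread was not tested.

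Probe sets of a gene did not always give the same sign. Of the 32 genes with several probe sets, all were positive in 17, all were negative in 8, and signs were mixed in 7, namely Adam12, Adam23, Adamts2, Adamts9, Mmp16, Mmp24 and Timp3. Over all 121 probe sets 3 passed as higher and 2 as lower, beside 1.06% and 4.38% of the probe sets on the arrays. The second Adamts9 probe set, 1437785_at, was at 5.23, 5.64 and 5.999 in CPC, against 6.93, 6.56 and 7.91 in Ctl (-1.51, adjusted p = 0.1), whereas the brightest one differed by -0.27. On 1437785_at all 3 CPC arrays lay under background. With these raised to background the mean was at least 1.49-fold lower in CPC, though the difference did not pass.

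**Figure D5:**
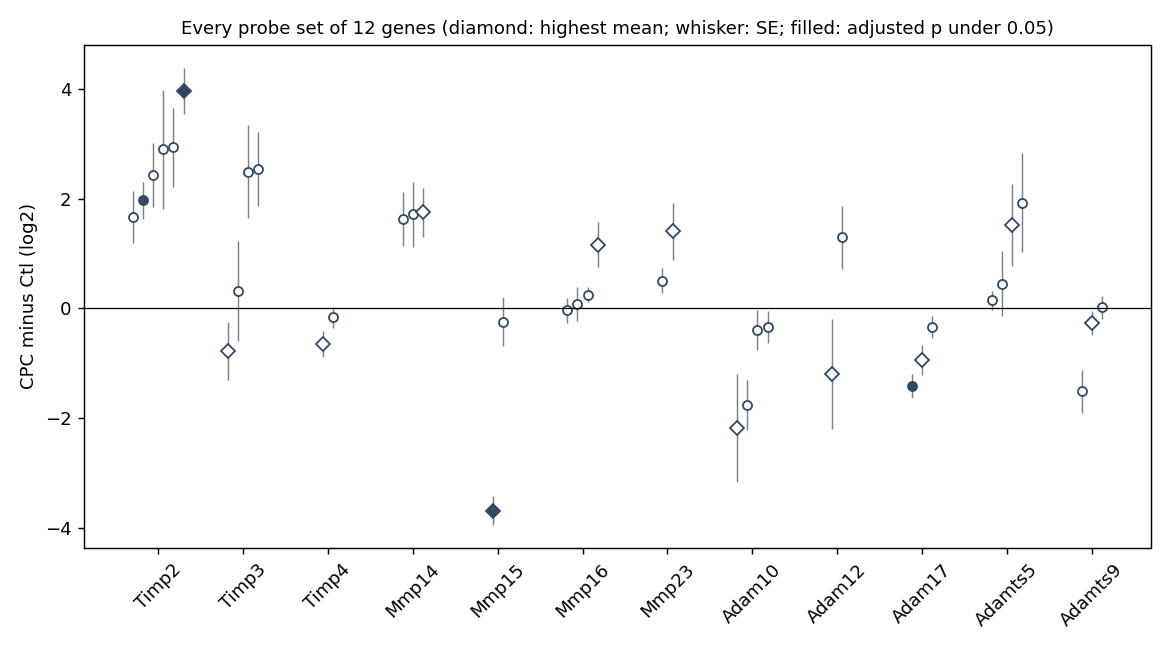
Difference of every probe set, CPC minus Ctl on the log2 scale, with its standard error from limma, for 12 genes with several probe sets. Diamonds mark the probe set used for the gene and filled symbols an adjusted p under 0.05. Timp2, Mmp14 and Adam10 keep one sign over their probe sets, Timp3 and Adam12 do not, and the Mmp15 pair differs by over 3 log2 units.

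Genes that activate, inhibit, mature or are cut by these proteases were read from 8 lists with 77 measured genes. Of these, 6 rose (7.79%) and 0 fell (limma), beside 1.15% of all genes that rose and 4.47% that fell. With unadjusted p under 0.05, 17 were higher (22.1%) and 1 was lower (1.30%), beside 11.0% and 10.2% of all genes. The number that rose was 3 without Ctl 1, Ctl 2 or Ctl 3 and 8 without CPC 3. Substrates and inhibitors held the 6 genes, while the activators, inducers, maturation factors, ADAM-like genes and other metalloproteinases held none.

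Among 7 inhibitors and binders outside the TIMPs, Thbs1 rose. Thbs1, encoding a matrix glycoprotein that binds MMPs, was at 11.76, 12.52 and 9.54 in CPC, against 6.44, 6.94 and 6.45 in Ctl (4.66, adjusted p = 0.0202). Thbs1 did not pass once CPC 1, Ctl 1, Ctl 2 or Ctl 3 was left out (adjusted p from 0.0555 to 0.0919), and CPC 3 was its lowest CPC array, as for Timp1. Reck, a membrane-anchored MMP inhibitor, was at or under background on all arrays (0.38, adjusted p = 0.334).

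None of the 7 activators passed (limma), while unadjusted p was under 0.05 for 1 of them. Furin, the convertase that removes the propeptide of membrane-type MMPs and many ADAMs, was at 9.45, 8.88 and 8.95 in CPC, against 8.82, 8.92 and 9.06 in Ctl (0.16, adjusted p = 0.650). Among inducers and surface partners, Bsg (EMMPRIN, which induces MMPs in neighbouring cells) was at 10.75, 11.50 and 9.49 in CPC, against 10.44, 11.93 and 10.32 in Ctl (-0.31, adjusted p = 0.778). Both genes had overlapping groups. Cd44, a hyaluronan receptor that holds MMPs at the surface, was at 11.09, 10.18 and 7.28 in CPC, against 6.34, 6.68 and 6.46 in Ctl, without overlap (3.02, adjusted p = 0.151), and CPC 3 was again the lowest CPC array. Of the ADAM10 and ADAM17 maturation factors Rhbdf1 (iRhom1) had the largest difference (1.46, adjusted p = 0.187), and 0 of 9 passed (limma), while unadjusted p was under 0.05 for Rhbdf1 alone.

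Of 18 substrates shed by ADAMs, 3 rose. Ereg, an epidermal growth factor receptor ligand released by ADAM17, was at 11.11, 11.24 and 10.36 in CPC, against 5.53, 5.71 and 5.75 in Ctl, where it was under background (5.24, adjusted p = 0.000359). With Ctl raised to background Ereg was at least 20.4-fold higher in CPC. Cxcl16, a membrane-bound chemokine released by ADAM10, was at 10.64, 11.79 and 10.75 in CPC, against 9.06, 9.29 and 9.38 in Ctl (1.82, adjusted p = 0.0334). Tnfrsf1a, the type 1 TNF receptor that ADAM17 sheds, was at 9.04, 8.94 and 8.75 in CPC, against 7.97, 7.75 and 8.05 in Ctl (0.98, adjusted p = 0.0252). These substrates thus were higher in CPC while the brightest Adam10 and Adam17 probe sets differed by -2.17 and -0.94 without passing. Cxcl16 did not pass once CPC 3, Ctl 1, Ctl 2 or Ctl 3 was left out (adjusted p from 0.0517 to 0.137), nor did Tnfrsf1a once CPC 2, Ctl 1, Ctl 2 or Ctl 3 was (adjusted p from 0.0828 to 0.109). With an intensity trend in the variance, neither Cxcl16 (adjusted p = 0.0521) nor Tnfrsf1a (adjusted p = 0.0532) passed.

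Among 13 matrix substrates, Fn1 and Col1a1 rose. Fn1 (fibronectin, cut by stromelysins and MMP14) was at 11.37, 12.18 and 11.57 in CPC, against 8.57, 8.28 and 8.54 in Ctl (3.24, adjusted p = 0.00133). Col1a1, encoding a chain of type I collagen and also a fibroblast marker, was at 10.73, 10.81 and 11.00 in CPC, against 7.77, 7.41 and 7.35 in Ctl (3.33, adjusted p = 0.000432). Both were far above all Ctl arrays on these probe sets. Averaged over all probe sets of the gene, the differences were smaller, 1.89 for Fn1 (adjusted p = 0.00104) and 1.72 for Col1a1 (adjusted p = 0.00372). Vcan, the versican core protein that ADAMTS1 and ADAMTS5 cleave, was at 8.60, 10.57 and 8.62 in CPC, against 7.74, 8.28 and 8.27 in Ctl, without overlap (1.17, adjusted p = 0.297). Tll1, a tolloid-like metalloproteinase, was at 4.88, 11.40 and 4.89 in CPC, against 5.03, 4.88 and 5.28 in Ctl, and so joined Mmp10, Mmp12 and Adamts6 as a gene seen high on CPC 2 (1.99, adjusted p = 0.517).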

How the data were processed

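RNA of 3 CPC and 3 Ctl samples was amplified and hybridised to 1 array each. The deposited values were log2 intensities that the authors made with RMA (background correction, quantile normalisation and summary by probe set). Partek is a further tool in their notes, and versions and genome build are not given in the sources used here. A second deposited table holds the authors' own test of CPC against Ctl, with a signed fold (another kind of value) and a p-value; only its gene annotation was used. Of 45101 probe sets, 64 controls were set aside and 45037 tested, of which 38011 named 1 gene.

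CPC was compared with Ctl over all 45037 probe sets with limma 3.58.1 under R 4.3.3 (eBayes after lmFit without covariates, two-sided), with Benjamini-Hochberg adjustment and a threshold of 0.05. The script was tested on simulated data. Probe sets were not filtered on level. The number of arrays limits the precision.

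The members and lists were chosen with earlier results of these data known, so no list test was made. Named were family genes past the threshold, all TIMPs, the 3 genes with the highest mean per family and group, the largest difference per family that did not pass, genes with 1 array at least 2 log2 units above the other arrays of its group, and related genes past the threshold with Bsg, Reck and Furin; any other gene was named after its values were seen. Alternatives were other scaling, leaving out dim probe sets, variance models, array weights, a replicate block, no moderation, the choice of probe set, a threshold of 0.01 and leaving out each array. Upstream windows and chromosome 9 neighbours came from RefSeq tables; proteins were not analysed here. A result for 1 gene among the related inhibitors is not reported here, and the counts leave it out.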

Additional observations from a re-analysis of the deposited data

How the results depend on the processing

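The number of family genes higher in CPC (2) was 1 after scaling to a common median, with robust hyperparameters, with the replicate block and at an adjusted p under 0.01, 0 without moderation and 18 with a weight per array; leaving out 1 array gave 1 to 3. The number lower (1) was 8 with a weight per array and 0 without probe sets whose suffix marks several matches; leaving out 1 array gave 1 (every array but CPC 1) to 2 (without CPC 1). The weight per array was 5.92 for CPC 2 and 0.32 and 0.23 for CPC 1 and CPC 3, so that fit reads mostly CPC 2 within that group. Deviations from the group means gave r of -0.11 to -0.01 between same-numbered arrays and -0.04 to 0.09 between differently numbered ones. The labels name no animals, so these values cannot tell whether the arrays were paired. With the replicate block Timp2 (adjusted p = 0.0346) and Mmp15 (adjusted p = 0.0134) passed. Timp1 (adjusted p = 0.0876), Cxcl16, Tnfrsf1a and the second Adam17 probe set (adjusted p = 0.0825) did not. Timp1 also missed the threshold after scaling (adjusted p = 0.0651), with robust hyperparameters (0.0544) and without moderation (0.183), and Timp2 without moderation (0.0632). Without probe sets of several matches Mmp15 was -0.24 (adjusted p = 0.755). Averaging the probe sets turned Timp3 to 1.14, Adam12 to 0.05 and Mmp24 to 0.12. With a weight per array Adam9 was 0.95 and Bsg 0.72. Leaving out 1 array gave Adam9 values of -1.11 (without CPC 1) to 1.27 (without CPC 3; 0.0027 without Ctl 3), Bsg -0.78 (without CPC 2) to 0.23 (without CPC 3), and Furin -0.02 (without CPC 1) to 0.26 (without CPC 2). None of these turned values passed. Scaling moved the median of all genes between 0.17 and 0.21. The number of related genes that rose (6) was 28 with a weight per array, 4 with the replicate block and with an intensity trend (where Cxcl16 and Tnfrsf1a did not pass) and 3 without moderation. Averaging the probe sets gave smaller sizes for Timp2 (2.64), Mmp15 (-1.96), Fn1 (1.89) and Col1a1 (1.72), all still past the threshold. The cause of these shifts was not tested. Signal over background limits the 11 genes that no array raised above it.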
